A study of Mus musculus with 12 samples.

Results

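The genes described here mark and pattern the outer adrenal cortex and the capsule around it. Of 10 listed genes, Shh, Gli1, Tcf21, Nr2f2, Rspo3, Wnt4, Lef1, Axin2 and Dab2 have a probe set that the platform table pairs with that symbol alone, and these 9 are among the 15900 genes tested. Akr1c18 has no such probe set in the tables used here and was not analysed. Where a gene had several such probe sets, the brightest on average was used.

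The arrays measured adrenal RNA of male C57Bl/6J mice aged 21 weeks. ASP mice had chronic aspartame, a sweetener, at 46 mg per kg body weight, beginning in utero through the mother. CGP mice had CGP 39551, an antagonist of the NMDA-type glutamate receptor, through the mother from conception to postnatal day 28. Its dose was set at 5 mg per kg by the body weight of the dams. ASP+CGP mice had both aspartame and CGP 39551, and CON mice had neither. RNA of the mice of a group was combined into 1 pool and each of the 4 pools was hybridised to 3 arrays, 12 in all, so the p-values below carry array-to-array error within a pool and no spread between mice.

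The adrenal capsule is a thin mesenchymal sheath, and the zona glomerulosa, which makes aldosterone, is the cortical layer directly beneath it. Sonic hedgehog (Shh) is secreted by subcapsular cells of the cortex and is received by capsular cells, which express the Hedgehog-responsive transcription factor Gli1. The capsule in turn secretes R-spondin 3 (Rspo3), which raises the response of glomerulosa cells to Wnt ligands such as Wnt4 by keeping Wnt receptors at the cell surface. Lef1 is a transcription factor of the Wnt pathway, Axin2 is a target and feedback inhibitor of it, and Dab2 is an endocytic adaptor used as a glomerulosa marker in rodents. Tcf21 and Nr2f2 (COUP-TFII) are transcription factors of the capsule and other stroma. Akr1c18 encodes 20-alpha-hydroxysteroid dehydrogenase, a marker of the transient X-zone of the mouse adrenal.

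The tissue label was checked against defining genes. Star and Cyp11b1, which act in steroid synthesis, had mean log2 signals of 13.41 and 13.81 in ASP, 13.59 and 13.87 in CGP, 13.53 and 13.91 in ASP+CGP and 13.64 and 13.90 in CON. Th, the first enzyme of catecholamine synthesis, had 12.97 in ASP, 13.25 in CGP, 13.30 in ASP+CGP and 13.39 in CON, so cortical and medullary genes were high in every pool. Markers of brain and liver cells also differed between pools. All 15 neuron markers tested were called higher in ASP than in CON, with a median log2 difference of 2.00, as were 14 of 14 oligodendrocyte markers (median 1.92) and 11 of 12 astrocyte markers (median 2.36). The summed linear signal of the neuron markers was 24955 to 25896 over ASP arrays, 5919 to 6119 over CGP arrays, 5293 to 5714 over ASP+CGP arrays and 6049 to 6200 over CON arrays. The summed signal of 20 hepatocyte markers was 34173 to 34371 over ASP arrays, 78060 to 79427 over CGP arrays, 25723 to 27283 over ASP+CGP arrays and 54847 to 56412 over CON arrays, with 15 called lower in ASP, 14 called higher in CGP and 17 called lower in ASP+CGP. Of all genes tested, 9.81% were called higher and 8.13% lower in ASP. Called in either direction were 1.64% in CGP and 14.4% in ASP+CGP. The part of these marker differences in the results below was not tested.

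The ASP+CGP arrays also had a narrower spread of signals, with interquartile ranges of 2.20 to 2.29 log2 units, against 2.58 to 2.62 on CON arrays. In ASP+CGP the median shift was 0.25 for genes whose CON signal was 6 to 7 and -0.34 for genes whose CON signal was 9 to 10. For that reason the main differences of the members are also given after removing each array's trend with signal level. That step moved the median difference of all genes from -0.10 to 0.02 in ASP against CON and from -0.17 to -0.02 in ASP+CGP against CON. In ASP against CON it took the genes called lower from 1292 to 480 and those called higher from 1559 to 1950. The pathway, zone and cell lists below are given from the deposited values only, so their calls carry that trend.

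The first comparison asked which of the regulators differed in the adrenal pool of aspartame-exposed mice. In ASP, Tcf21 fell to 0.638 of its CON level, and Wnt4, Axin2, Nr2f2, Dab2 and Rspo3 were 0.758 to 0.850 of theirs, while Shh, Gli1 and Lef1 were at 0.989, 1.04 and 1.01 of theirs and did not pass the test. Calls needed a change of at least 1.4-fold and an adjusted p under 0.05. By that rule 1 of 9 members was called lower and 0 called higher, where 8.13% of all genes were called lower and 9.81% higher. By the adjusted p alone 6 of 9 were lower, against 37.7% of all genes. With the trend removed 4 of these passed the adjusted p, Tcf21, Wnt4, Axin2 and Dab2, while Nr2f2 and Rspo3 did not. Another 3 members, Shh, Gli1 and Lef1, then passed it as higher. The share of all genes past the adjusted p was not counted with the trend removed. The arrays of the same 6 members lay wholly below the CON arrays, which 43% of all genes did. The median difference of the 9 members was -0.28, beside -0.10 over all genes tested. In pooled tissue RNA, fewer cells of a type, less RNA per cell and a larger share of RNA from other cells cannot be told apart.

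**Figure D1:**
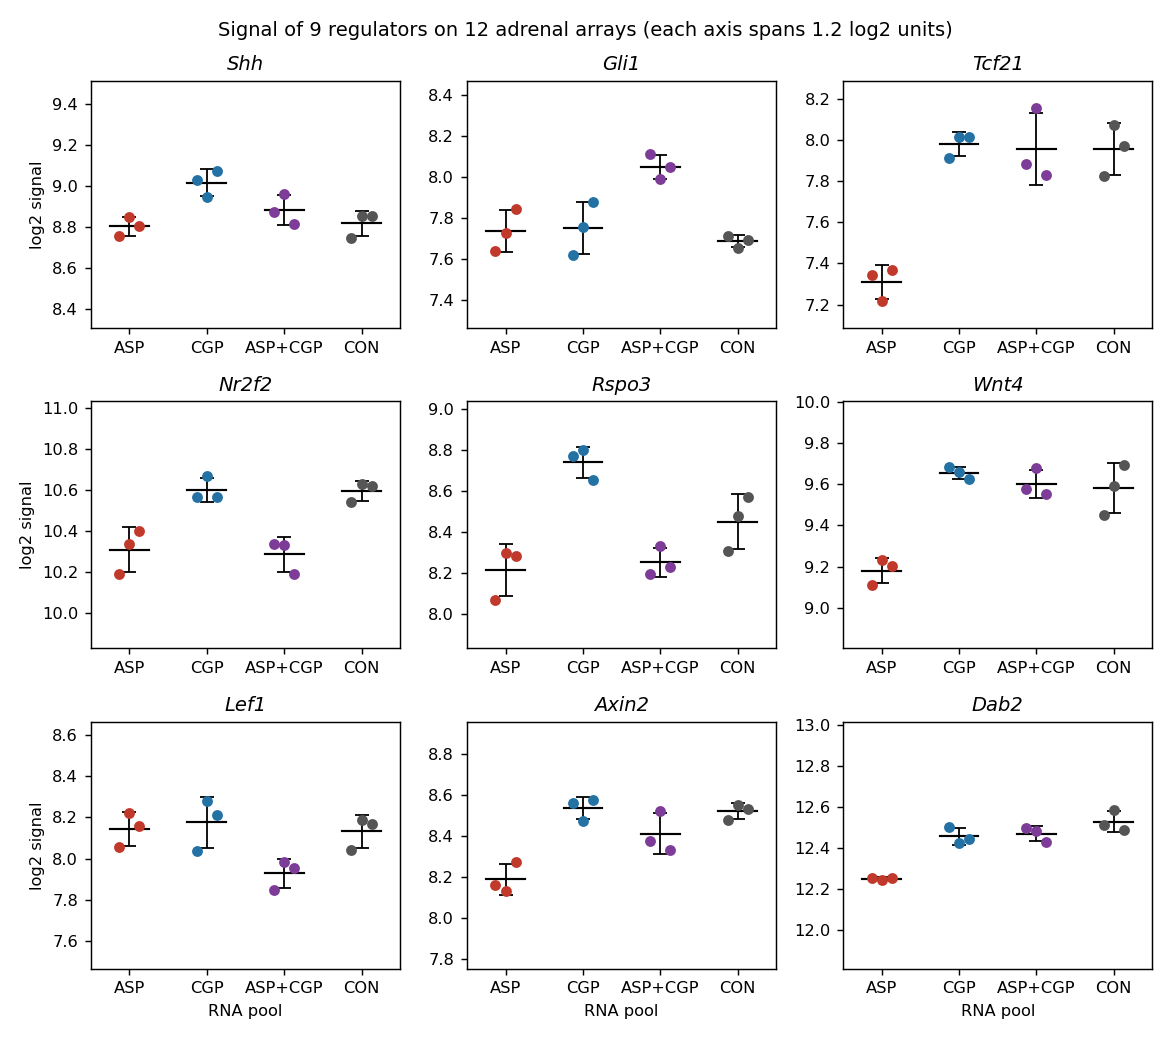
Log2 signal of each of the 9 regulators (1 panel per gene) on every array, by RNA pool. Points are single arrays, horizontal bars are pool means and vertical bars are SD (n = 3 arrays of 1 pool). Tcf21 lies between 7.22 and 7.37 in ASP and between 7.83 and 8.16 in the other pools.

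Tcf21 (probe set 10368240, Entrez 21412), a basic helix-loop-helix factor of stromal and capsular mesenchyme, was the member with the largest difference. Its log2 signals were 7.34, 7.22 and 7.37 on the ASP arrays, 7.91, 8.01 and 8.01 on the CGP arrays, 7.88, 8.16 and 7.83 on the ASP+CGP arrays and 7.83, 8.07 and 7.97 on the CON arrays. Every ASP array was below every array of the other pools, and the CGP, ASP+CGP and CON arrays overlapped. The difference was -0.65 ± 0.09 (SE) in ASP against CON (95% interval -0.83 to -0.46, adjusted p = 1.74e-05), 0.02 in CGP (-0.16 to 0.21) and -0.00 in ASP+CGP (-0.19 to 0.18). Against ASP, ASP+CGP was higher by 0.65 ± 0.09 (1.57-fold, adjusted p = 1.94e-05). The interaction, the aspartame difference with CGP 39551 minus that without it, was 0.62 ± 0.12 (adjusted p = 0.000834) and was called. Removal of the trend with signal level left -0.51 in ASP against CON, 0.60 in ASP+CGP against ASP and an interaction of 0.57, all still called. All 3 calls were also kept without any 1 of the 12 arrays, with differences of -0.71 to -0.59, 0.55 to 0.71 and 0.52 to 0.69 on the log2 scale.

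Over the 3 differences from CON, the named genes with the pattern most like that of Tcf21 were Itgbl1, Llgl2 and Syne4, with root mean square distances of 0.037, 0.042 and 0.047 log2 units among 14599 genes compared. Their differences were -0.63, -0.60 and -0.62 in ASP, 0.03, 0.02 and -0.00 in CGP, and -0.06, -0.05 and -0.07 in ASP+CGP. In all, 52 genes lay within 0.1 log2 units of Tcf21 by this measure. Llgl2 encodes a cell polarity protein and Syne4 a nuclear envelope protein.

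The stretch upstream of the start of Tcf21 is shown because Tcf21 was the only member called against CON, together with the other members whose upstream stretch holds the same short motif. RefSeq windows (GRCm38.p6) were given for 7 of the 10 listed genes. In the 250 bases before each start, 3 motifs were searched on both strands. They were the core bound by TCF/LEF factors (CTTTGA, or TCAAAG on the opposite strand), the core of GLI sites (CCACCCA or TGGGTGG) and the SF-1 site (AAGGTCA or TGACCTT). Of 32841 windows of all genes, 13.8% held the TCF/LEF core, 8.11% the GLI core and 4.08% the SF-1 site. Among the members the TCF/LEF core was found before a start of Tcf21, Nr2f2 and Lef1, and no GLI core or SF-1 site was found in these windows. The sequences follow 5′ to 3′ on the gene's strand with the matches in capitals, and begin 250, 141 and 200 bases before the start for Tcf21, Nr2f2 and Lef1.
Tcf21 (chr10:22820144-22820393, minus strand): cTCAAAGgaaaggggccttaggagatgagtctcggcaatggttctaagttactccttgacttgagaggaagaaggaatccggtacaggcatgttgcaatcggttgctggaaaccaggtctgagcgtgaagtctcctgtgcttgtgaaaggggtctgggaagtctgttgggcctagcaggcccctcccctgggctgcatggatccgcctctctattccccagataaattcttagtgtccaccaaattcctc
Nr2f2 (chr7:70366828-70366887, minus strand): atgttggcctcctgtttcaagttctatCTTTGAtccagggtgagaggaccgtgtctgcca
Lef1 (chr3:131156094-131156199, plus strand): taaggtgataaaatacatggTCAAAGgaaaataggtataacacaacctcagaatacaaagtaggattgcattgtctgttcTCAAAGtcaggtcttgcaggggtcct
The match of Tcf21 begins 249 bases before the start, that of Nr2f2 114 bases before it, and the matches of Lef1 180 and 120 bases before the start of 1 of its 4 windows. These matches are descriptions of sequence.

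Nr2f2 (probe set 10564527), a nuclear receptor of capsular and other mesenchymal and venous cells, had log2 signals of 10.19, 10.34 and 10.40 on the ASP arrays, 10.57, 10.67 and 10.56 on the CGP arrays, 10.34, 10.33 and 10.19 on the ASP+CGP arrays and 10.54, 10.63 and 10.62 on the CON arrays. Both aspartame pools lay below the CGP and CON pools without overlap. The difference from CON was -0.29 ± 0.07 in ASP (0.821-fold, adjusted p = 0.00231) and -0.31 ± 0.07 in ASP+CGP (0.808-fold, adjusted p = 0.00111), both under 1.4-fold. After removal of the trend with signal level these were -0.13 (adjusted p = 0.0591) and -0.02 (adjusted p = 0.794). Its interaction was -0.03 (95% interval -0.23 to 0.18), with the sign turned to 0.11 after that removal.

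Rspo3 (probe set 10368495) is the R-spondin that the capsule secretes. Its signals were 8.07, 8.30 and 8.28 on the ASP arrays, 8.77, 8.80 and 8.65 on the CGP arrays, 8.20, 8.33 and 8.23 on the ASP+CGP arrays and 8.31, 8.48 and 8.57 on the CON arrays. The CGP arrays were above all others, the ASP arrays were below the CON arrays by a narrow margin, and the ASP+CGP arrays overlapped both aspartame alone and CON. Against CON, CGP differed by 0.29 ± 0.08 (95% interval 0.12 to 0.46), which did not pass the adjusted p (0.0805). Against CGP, ASP+CGP was lower by a called difference of -0.49 ± 0.08 (0.714-fold, adjusted p = 0.000112). That call stood at the fold minimum. It was lost without CGP array 1 (-0.47), CGP array 2 (-0.46), ASP+CGP array 1 (-0.46) or ASP+CGP array 3 (-0.47), and the difference was -0.26 (adjusted p = 0.0058) after removal of the trend with signal level. The ASP difference from CON was -0.23 ± 0.08 (adjusted p = 0.0221), with adjusted p = 0.121, 0.0656 and 0.11 without ASP array 1, CON array 2 or CON array 3. It was -0.075 (adjusted p = 0.369) with the trend removed.

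Shh and Gli1, the Hedgehog ligand of the outer cortex and the transcription factor that its signal induces in the capsule, had overlapping arrays in ASP and CON, with differences of -0.02 (95% interval -0.15 to 0.11) for Shh and 0.05 (-0.10 to 0.20) for Gli1. Shh (probe set 10528872) had 8.76, 8.85 and 8.80 on the ASP arrays, 9.03, 8.94 and 9.07 on the CGP arrays, 8.87, 8.96 and 8.82 on the ASP+CGP arrays and 8.75, 8.85 and 8.85 on the CON arrays. Only the CGP arrays lay wholly above CON, by 0.20 ± 0.06 (95% interval 0.07 to 0.33, adjusted p = 0.144). Gli1 (probe set 10373179) had 7.64, 7.73 and 7.84 on the ASP arrays, 7.62, 7.76 and 7.88 on the CGP arrays, 8.11, 7.99 and 8.05 on the ASP+CGP arrays and 7.71, 7.66 and 7.69 on the CON arrays. The ASP+CGP arrays were above every other array, and the remaining pools overlapped. The Gli1 difference in ASP+CGP was 0.36 ± 0.07 against CON (1.29-fold, adjusted p = 0.000533), 0.31 against ASP (adjusted p = 0.0018) and 0.30 against CGP (adjusted p = 0.00196), each under 1.4-fold. After removal of the trend with signal level, Gli1 was 0.45 and Shh 0.34 above CON in ASP+CGP (adjusted p = 0.000331 and 0.000327), where the deposited values gave 0.06 for Shh (95% interval -0.07 to 0.20). In ASP against CON the same step gave 0.15 for Shh, whose deposited difference was -0.02, and 0.19 for Gli1, whose deposited difference was 0.05.

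The Wnt side of the pathway was read through a ligand, a transcription factor and a target. Wnt4 (probe set 10509273) had 9.11, 9.23 and 9.20 on the ASP arrays, 9.68, 9.66 and 9.63 on the CGP arrays, 9.58, 9.68 and 9.55 on the ASP+CGP arrays and 9.45, 9.59 and 9.69 on the CON arrays. As with Tcf21, the ASP arrays were below all others and the remaining pools overlapped. The difference was -0.40 ± 0.07 in ASP against CON (adjusted p = 0.000144) and 0.42 ± 0.07 in ASP+CGP against ASP (1.34-fold, adjusted p = 9.47e-05), and the interaction was 0.35 ± 0.09 (adjusted p = 0.00779), all under 1.4-fold. After removal of the trend with signal level they were -0.23, 0.57 and 0.50, and the last 2 were then called. In ASP+CGP against CON the deposited difference was 0.02 (95% interval -0.12 to 0.17) and the detrended one 0.33.

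A second Wnt4 probe set (10509267) had 8.87, 8.97 and 8.93 on the ASP arrays, 9.36, 9.65 and 9.42 on the CGP arrays, 9.25, 9.26 and 9.12 on the ASP+CGP arrays and 9.30, 9.37 and 9.45 on the CON arrays. Its ASP arrays were again below all others, but its ASP+CGP arrays were also below CON. Its differences were -0.45 in ASP against CON (adjusted p = 0.000761 over all probe sets) and 0.28 in ASP+CGP against ASP (adjusted p = 0.0101). Its interaction was 0.18 (adjusted p = 0.213), so the 2 probe sets parted on whether the interaction passed the test.

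Axin2 (probe set 10382228), the Wnt target, had 8.16, 8.13 and 8.28 on the ASP arrays, 8.56, 8.47 and 8.58 on the CGP arrays, 8.37, 8.52 and 8.33 on the ASP+CGP arrays and 8.48, 8.55 and 8.53 on the CON arrays. The ASP arrays were below all others, and ASP+CGP overlapped both CGP and CON. The ASP difference from CON was -0.33 ± 0.06 (0.795-fold, adjusted p = 0.00049), or -0.17 (adjusted p = 0.0188) after removal of the trend. Lef1 (probe set 10496091) had 8.05, 8.22 and 8.16 on the ASP arrays, 8.04, 8.28 and 8.21 on the CGP arrays, 7.85, 7.98 and 7.95 on the ASP+CGP arrays and 8.04, 8.19 and 8.17 on the CON arrays. Here the ASP+CGP arrays were the low ones, and the ASP, CGP and CON arrays overlapped. The Lef1 difference in ASP+CGP against CON was -0.20 ± 0.07 (0.868-fold, adjusted p = 0.0223), or -0.05 (adjusted p = 0.548) after removal of the trend. In ASP against CON it was 0.01 from the deposited values and 0.16 (adjusted p = 0.0457) after that removal. The Lef1 difference in ASP+CGP against CON was -0.16, -0.18 and -0.19 without ASP+CGP array 1, CON array 2 or CON array 3. The adjusted p was then 0.0896, 0.0818 and 0.0695.

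Dab2 (probe set 10422728), the glomerulosa marker, had 12.25, 12.24 and 12.26 on the ASP arrays, 12.50, 12.42 and 12.44 on the CGP arrays, 12.50, 12.49 and 12.43 on the ASP+CGP arrays and 12.51, 12.58 and 12.49 on the CON arrays. The ASP arrays were below all others, and the other pools overlapped. The difference in ASP against CON was -0.28 ± 0.05 (0.826-fold, adjusted p = 0.000435), or -0.20 (adjusted p = 0.00159) after removal of the trend. ASP+CGP was 0.22 ± 0.05 above ASP (adjusted p = 0.00246), and the interaction was 0.29 ± 0.07 (adjusted p = 0.00534). These were 0.26 (adjusted p = 0.000201) and 0.32 (adjusted p = 0.000791) with the trend removed.

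**Figure D2:**
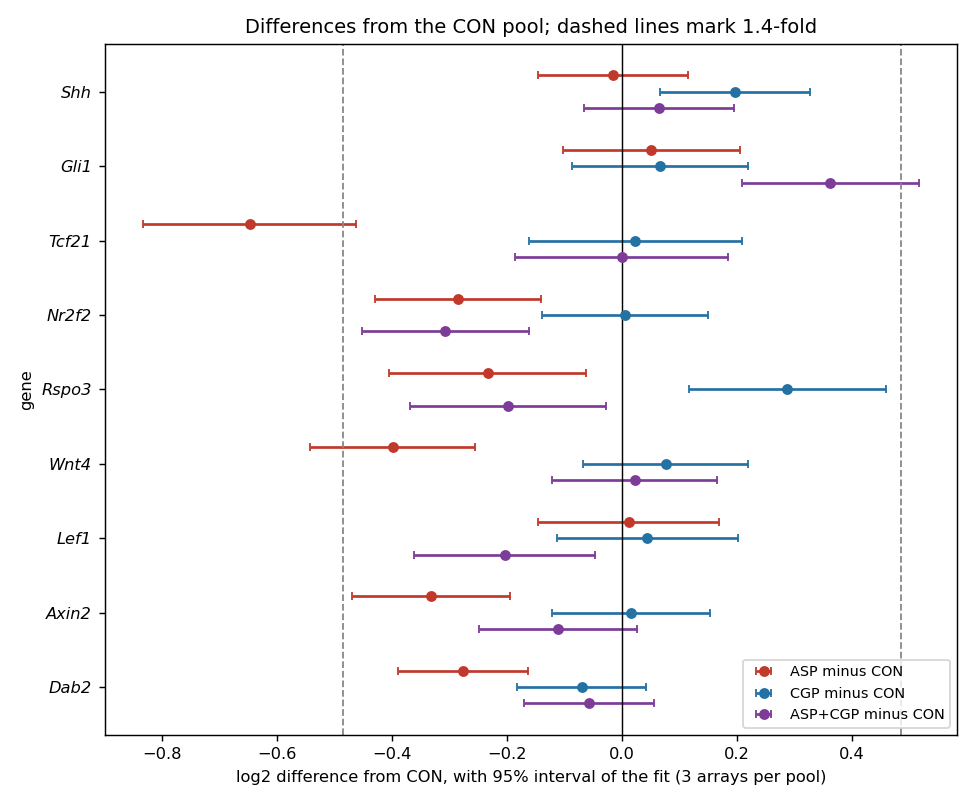
Log2 difference from the CON pool for each regulator in ASP, CGP and ASP+CGP, with 95% intervals of the fit (3 arrays per pool); dashed lines mark 1.4-fold. Tcf21 in ASP is the only estimate beyond a dashed line, at -0.65.

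The second comparison asked what developmental exposure to CGP 39551 alone did. By limma 0 of the 9 members were called, where 1.64% of all genes were called in either direction, and 0 passed the adjusted p, which 3.01% of all genes did. At an unadjusted p under 0.05 in limma there were 2, Shh and Rspo3, and the share of all genes there was not counted. The arrays of these 2 members lay wholly above CON, which those of 10.1% of all genes did. The member differences ran from -0.07 for Dab2 to 0.29 for Rspo3, with a median of 0.04 beside 0.00 over all genes. After removal of the trend with signal level Rspo3 passed the adjusted p (0.0317) at a difference of 0.28.

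In ASP+CGP against CON, 0 of 9 members were called, where 14.4% of all genes were called in either direction. By the adjusted p alone Gli1 was higher and Nr2f2, Rspo3 and Lef1 were lower, 4 of 9 members against 72.7% of all genes, and the same 4 had an unadjusted p under 0.05 in limma. Gli1, Shh and Wnt4 passed the adjusted p as higher, and 0 members as lower, with the trend removed. The share of all genes at the unadjusted p, or past the adjusted p with the trend removed, was not counted. The median member difference was -0.06, beside -0.17 over all genes. After removal of the trend Rspo3 turned from -0.20 to 0.02, Axin2 from -0.11 to 0.11, Dab2 from -0.06 to 0.06 and Tcf21 from -0.00 to 0.09. For Rspo3 the adjusted p of 0.0373 became 0.111, 0.0918, 0.094 and 0.166 without ASP+CGP array 1, ASP+CGP array 3, CON array 2 or CON array 3. The 3 comparisons against CON share the CON arrays.

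Set against ASP, ASP+CGP had 1 of 9 members called higher, Tcf21, where 6.55% of all genes were called higher. By the adjusted p alone Tcf21, Wnt4, Gli1, Axin2 and Dab2 were higher and Lef1 was lower, 6 of 9 members against 63.1% of all genes. Their median difference was 0.22, beside -0.02 over all genes. The Lef1 difference of -0.22 (adjusted p = 0.0197) was -0.18 without ASP array 2 or ASP+CGP array 1 (adjusted p = 0.0805 and 0.0803). Set against CGP, ASP+CGP had 1 of 9 members called lower, Rspo3, where 11% of all genes were called lower, and by the adjusted p alone 4 of 9 differed (Gli1 higher, Rspo3, Nr2f2 and Lef1 lower) against 75.6% of all genes. The interaction was called for 1 of 9 members, Tcf21, where 24.6% of all genes were called in either direction. It passed the adjusted p in 4 of 9, Tcf21, Wnt4, Dab2 and Lef1, against 51.4% of all genes. Once the trend was removed the members past the adjusted p were 7 against ASP, with Shh added as higher, 5 against CGP (Gli1, Wnt4, Dab2 and Shh higher and Rspo3 lower) and 5 in the interaction, with Axin2 added.

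**Figure D3:**
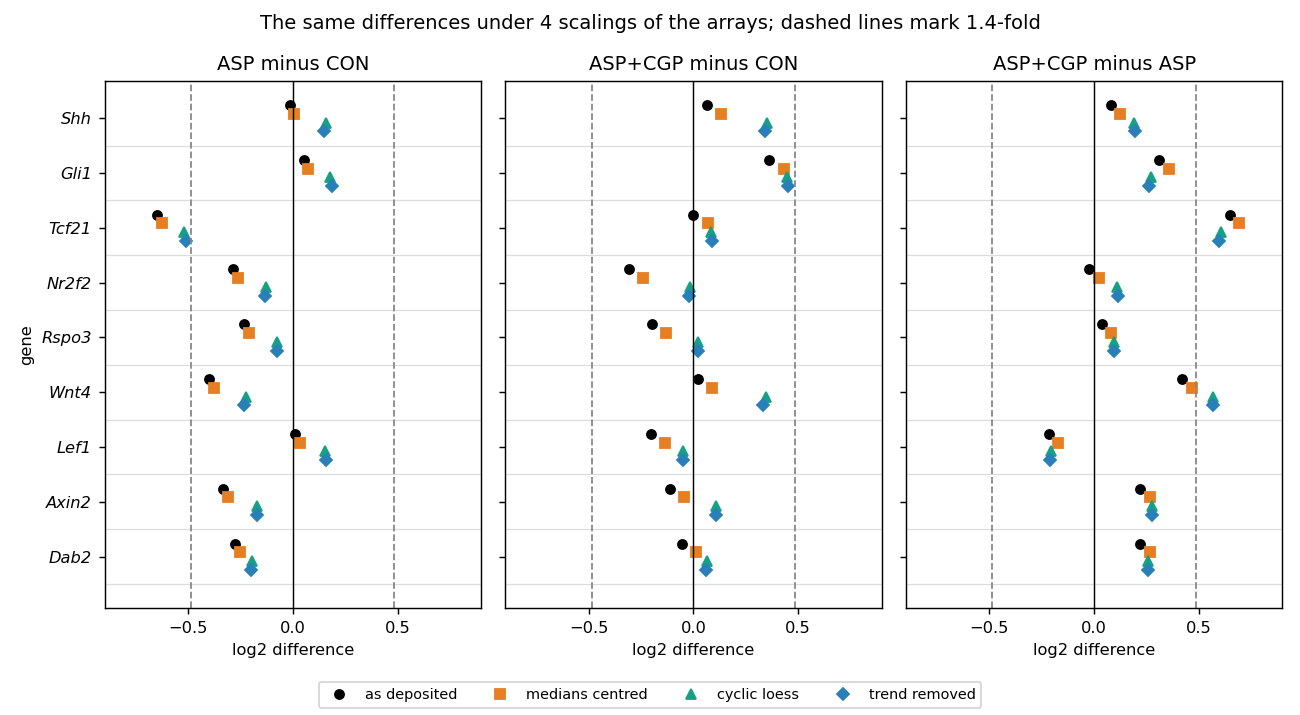
Log2 differences of the regulators in ASP minus CON, ASP+CGP minus CON and ASP+CGP minus ASP, from the deposited values and after 3 further scalings; dashed lines mark 1.4-fold. Tcf21 lies between -0.65 and -0.51 in ASP minus CON, and Wnt4 moves from 0.02 to 0.33 in ASP+CGP minus CON once each array's trend with signal level is removed.

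The other Hedgehog genes were read from a list of 15 tested genes that includes Shh and Gli1. In ASP against CON 1 was called higher and 1 lower, where 9.81% of all genes were called higher and 8.13% lower. Ptch1, the Hedgehog receptor and a target of the pathway, was 1.67-fold higher in ASP (0.74 ± 0.06, adjusted p = 4.82e-08), with mean signals of 10.57 in ASP, 9.94 in CGP, 9.54 in ASP+CGP and 9.83 in CON. The neuron markers were also higher in ASP, with a median difference from CON of 2.00, against 0.02 in ASP+CGP. Their part in the Ptch1 difference was not tested. Boc, a co-receptor, was 0.649-fold in ASP (-0.62 ± 0.07, adjusted p = 4.96e-06). The list's median was -0.29, beside -0.10 over all genes. In ASP+CGP 2 were called higher, the ligand gene Ihh (0.56) and Scube2 (0.60), which acts in Hedgehog release, and 0 were called lower. In CGP 0 were called, where 1.64% of all genes were, with differences from -0.15 to 0.20.

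The ASP counts that follow stand beside 9.81% of all genes called higher and 8.13% called lower in ASP. Of 18 Wnt ligand genes, Wnt4 among them, Wnt3 alone was called in ASP. Its CON mean was under the level of 6 taken as the detection floor, so it was at least 1.56-fold higher (adjusted p = 2.72e-05). In ASP+CGP 6 ligand genes were called higher and 0 lower, where 969 and 1323 of all 15900 genes were. Among the 6 were Wnt3a (0.75), Wnt3 (at least 1.39-fold by the same floor), Wnt10b (0.53) and Wnt9b (0.52). The list's median was 0.36 beside -0.17 over all genes. Genes with CON signals of 6 to 7 shifted upward on those arrays as a whole, as given above, and Wnt3a had a CON mean of 6.93. Of 15 Wnt receptors, Lrp5 (-0.60) and Lrp6 (-0.55), the co-receptors for Wnt ligands, were called lower in ASP, and Lrp6 (-0.60) and Fzd3 (-0.51) in ASP+CGP. Lgr5, an R-spondin receptor, was the 1 gene called of 8 R-spondins and R-spondin receptors in ASP, at 0.633-fold (-0.66 ± 0.07, adjusted p = 1.62e-06), and 0 of them were called in ASP+CGP.

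Among 19 genes of Wnt signal transduction, Apc2 was called higher in ASP (1.35) and Tcf7l1, a TCF factor, lower (-0.58). In ASP+CGP Apc (-0.58) and Dvl3 (-0.51), a scaffold of the destruction complex and an adaptor below the receptors, were called lower. Of all genes 14.4% were called in either direction in ASP+CGP. Among 18 inhibitors and feedback genes, Sfrp2, a secreted Wnt antagonist, was called higher in ASP (0.65) and Dkk1, another secreted antagonist, in ASP+CGP (0.65). In CGP 0 genes of these 4 Wnt lists were called, where 1.64% of all genes were.

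Zone markers were read beside the regulators, against 8.13% of all genes called lower and 9.81% called higher in ASP and a median of -0.10 over all genes. The share called lower in ASP varied with signal level. It was 2.14% at a CON level of 6 to 7, 13.1% at 10 to 11 and 4.62% at 12 or more. Of 20 capsule and stroma markers, a list that includes Gli1, Nr2f2, Tcf21 and Rspo3, 3 were called lower in ASP, Tcf21, Pdgfrb (-0.53), a receptor of mural and mesenchymal cells, and the collagen gene Col1a2 (-0.49). Thy1 was called higher (2.36), and it is also a neuronal surface protein. The list's median was -0.27. Endothelial markers, which belong to neither capsule nor steroid cells, had 7 of 12 called lower and a median of -0.50. Adrenal medulla markers had 5 of 14 called lower and a median of -0.40. In ASP+CGP the medians were -0.12 for capsule and stroma, -0.27 for endothelial and -0.19 for medulla markers, beside -0.17 over all genes.

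The 15 zona glomerulosa markers, 5 of them members, had a median of -0.40 in ASP. The median was -0.10 over all genes and -0.17 over those at a CON level of 11 to 12, where 11.2% were called lower. Of the markers 5 were called lower and 1 higher in ASP. They were Nr4a2 (-0.94), a nuclear receptor that activates the aldosterone synthase gene in human cells, Cyp11b2 (-0.67), the aldosterone synthase, Hsd3b6 (-0.53), Fgfr2 (-0.51) and Kcnk9 (-0.49), a potassium channel, while Vsnl1 (1.24), a calcium sensor that neurons also express, was higher. Cyp11b2 had mean signals of 11.80 ± 0.04 in ASP, 12.19 ± 0.08 in CGP, 12.17 ± 0.03 in ASP+CGP and 12.47 ± 0.05 in CON (SD). In ASP+CGP Nr4a2 (-0.83) was the 1 marker called, where 14.4% of all genes were called in either direction. The median of the glomerulosa markers in ASP+CGP was -0.20, beside -0.17 over all genes. Of 12 zona fasciculata markers 5 were called lower in ASP (8.13% of all genes), with a median of -0.25. They included Nr0b1 (-0.63) and Nr5a1 (-0.53), transcription factors of steroid cells, Abcb1b (-0.56) and Fdx1 (-0.55), the electron donor of mitochondrial steroid enzymes. Cyp11b1, on the same list, had mean signals of 13.81 in ASP and 13.90 in CON. The median of the fasciculata markers in ASP+CGP was -0.10.

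With Akr1c18 not analysed, the genes tested from the X-zone list were Cyp2f2, Abcb4 and Thrb. Whether these adrenals of adult males held an X-zone was not tested, so the values below are those of the listed genes only. Cyp2f2 had mean signals of 9.81 in ASP, 11.47 in CGP, 9.59 in ASP+CGP and 10.79 in CON, and was called lower in ASP (-0.98) and ASP+CGP (-1.21) and higher in CGP (0.68). Abcb4 was called higher in CGP (0.82, adjusted p = 2.35e-06). Both genes are also expressed in liver, and the 20 hepatocyte markers moved in the same directions, with medians of -1.07 in ASP, 0.59 in CGP and -1.37 in ASP+CGP. Thrb, the thyroid hormone receptor beta, differed from CON by 0.07 in CGP.

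**Figure D4:**
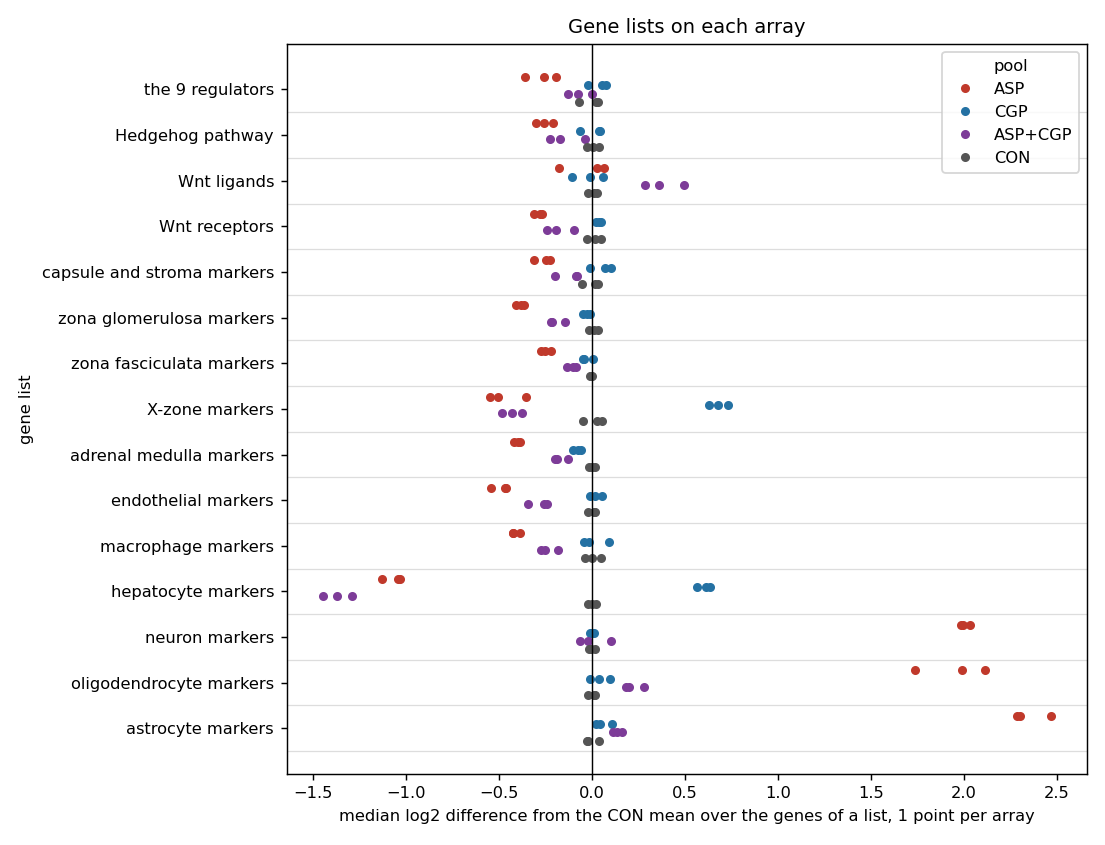
Median log2 difference from the CON mean over the genes of each list, with 1 point per array, coloured by pool. Neuron, oligodendrocyte and astrocyte lists have array medians of at least 1.74 in ASP and of -0.07 to 0.28 in the other pools. The X-zone and hepatocyte lists are highest in CGP. The capsule, zone, medulla and endothelial lists lie below 0 in ASP and also in ASP+CGP.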

How the data were processed

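RNA pools of adrenal glands from 4 groups were hybridised to 12 arrays (Affymetrix Mouse Gene ST). The authors deposited a log2 signal for each probe set, summarised by RMA in Partek. All 26533 probe sets reach 6 on at least 1 array. Arrays have no counting depth, and their number limits precision. The platform table pairs 17710 probe sets with 1 symbol, 1077 with several and 7746 with none. A gene was read at its single-symbol probe set with the highest mean (16244 genes), and genes with a mean under 6 in every pool (344) were left out.

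Pool means were fitted to all arrays with limma 3.58.1 (R 4.3.3, data.table version 1.17.8) and moderated by empirical Bayes. P-values were adjusted by Benjamini-Hochberg over 15900 genes within each of 6 contrasts. Errors of differences are SE of this fit, and bounds set a pool mean under 6 to 6. Alternatives covered the dim-gene filter, scaling, moderation, arrays in the fit, array weights, replicate number, fold minimum, adjustment, probe set choice and each array left out.

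Members and lists were chosen with earlier results of these data known. Named genes are the members, up to 4 called genes of a pathway or zone list in a contrast with the largest differences, up to 3 of a cell list, the 3 genes most like a called member, and tissue controls. Fgfr2, Kcnk9 and Thrb fall outside this rule and were named after their values were seen. The tables used here gave no array genome build, so gene positions are not printed. Promoter windows are those of RefSeq GRCm38.p6.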

Additional observations from a re-analysis of the deposited data

Results flagged for a closer look

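The aspartame difference was tested for whether it differed with and without CGP 39551. For 4 of 9 regulators this interaction passed the adjusted p, which 51.4% of all genes did. It was 0.62 for Tcf21, with aspartame differences of -0.02 with CGP 39551 and -0.65 without it, 0.35 for Wnt4 (-0.05 with and -0.40 without), 0.29 for Dab2 (0.01 with and -0.28 without) and -0.26 for Lef1 (-0.25 with and 0.01 without). Over the other settings tried on all arrays the number past the adjusted p ran from 3 to 6, and Tcf21, Wnt4 and Dab2 passed under each. The second Wnt4 probe set (10509267), read alone, gave an interaction of 0.18 (adjusted p = 0.213 over all probe sets). Gli1 also passed with the replicate block (adjusted p = 0.0434), median centring (0.0218), array weights and the stricter dim-gene filter, Rspo3 with the replicate block (0.046), and Axin2 with median centring (0.0233), cyclic loess and trend removal. Lef1 did not pass under median centring (0.0796), array weights (0.0708), no moderation (0.0773) or no dim-gene filter (0.0508). The Lef1 value rested at an adjusted p of 0.0498, which became 0.116, 0.0796, 0.123, 0.0891, 0.114, 0.0659, 0.126, 0.0521 and 0.0606 without ASP array 2, ASP array 3, CGP array 2, CGP array 3, ASP+CGP array 1, ASP+CGP array 3, CON array 1, CON array 2 or CON array 3.

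Of 124 other pathway and zone genes tested, 26 had a called interaction, where 24.6% of all genes tested did. In the Hedgehog list they were Ptch1 (-1.15), Dhh (0.56), Ihh (0.70) and Scube2 (0.66). Among Wnt ligands they were Wnt3a (0.72), Wnt6 (0.54), Wnt9b (0.57), Wnt10b (0.73) and Wnt16 (0.50), and among Wnt receptors Fzd3 (-0.89) and Ror2 (0.55). In Wnt signal transduction they were Apc (-0.54), Apc2 (-1.12), Bcl9 (-0.71), Gsk3b (-0.81) and Tcf7l2 (-0.65), and among inhibitors Dkk4 (0.82) and Sfrp2 (-0.69). The capsule markers were Thy1 (-2.42), Dpt (-0.50) and Wt1 (0.52), and the glomerulosa markers Cyp11b2 (0.66), Hsd3b6 (0.54) and Vsnl1 (-1.52). On the X-zone list they were Cyp2f2 (-0.91) and Abcb4 (-0.74), which are also expressed in liver. The median interaction over all genes was -0.03.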

How the results depend on the processing

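Tcf21 kept its call in ASP against CON, in ASP+CGP against ASP and in the interaction under each scaling, filter and fit tried and without any 1 array. A fold minimum of 1.8 left 0 members called in these contrasts and in ASP+CGP against CGP. With no fold minimum the members called were 6 in ASP against CON, 4 in ASP+CGP against CON, 6 in ASP+CGP against ASP, 4 in ASP+CGP against CGP and 4 in the interaction. Cyclic loess and removal of each array's trend with signal level both gave 2 called members, Tcf21 and Wnt4, in ASP+CGP against ASP and in the interaction. Rspo3 in ASP+CGP against CGP was no longer called (0 members) under median centring, cyclic loess or trend removal, and the members called there ranged from 0 to 1 as each array was left out. The cause of these changes was not tested.

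Counts over all genes with no fold minimum were 8788 in ASP, 479 in CGP and 11556 in ASP+CGP against CON, 10027 in ASP+CGP against ASP, 12027 in ASP+CGP against CGP and 8175 in the interaction, and with a minimum of 1.8-fold they were 1076, 92, 191, 1088, 422 and 1323 in the same order. At the 1.4-fold minimum, cyclic loess and trend removal gave 1179 and 1154 called genes in ASP+CGP against CON and 1637 and 1596 in ASP+CGP against CGP. The share of calls that were higher was 54.7% in ASP and 42.3% in ASP+CGP against CON from the deposited values, 59.3% and 70.2% after median centring, 80.1% and 57.6% after cyclic loess and 80.2% and 54.7% after trend removal.

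Small differences that were not called changed sign under some settings. The sign turned in ASP against CON for Shh (-0.015) 0.0066 after median centring, 0.16 after cyclic loess, 0.15 after trend removal, and for Lef1 (0.012) -0.015 with array weights. The sign turned in CGP against CON for Nr2f2 (0.0047) -0.0042 after median centring, -0.0018 after cyclic loess, -0.0060 with array weights, and for Tcf21 (0.023) -0.0014 with array weights. The sign turned in ASP+CGP against CON for Wnt4 (0.022) -0.0051 with array weights, -0.070 as a mean of its probe sets, and for Rspo3 (-0.20) 0.020 after cyclic loess, 0.020 after trend removal, and for Axin2 (-0.11) 0.11 after cyclic loess, 0.11 after trend removal, and for Tcf21 (-0.00066) 0.067 after median centring, 0.084 after cyclic loess, 0.086 after trend removal, and for Dab2 (-0.057) 0.011 after median centring, 0.065 after cyclic loess, 0.059 after trend removal. The sign turned in ASP+CGP against ASP for Nr2f2 (-0.022) 0.024 after median centring, 0.11 after cyclic loess, 0.11 after trend removal. The sign turned in ASP+CGP against CGP for Shh (-0.13) 0.16 after cyclic loess, 0.15 after trend removal, and for Wnt4 (-0.054) 0.023 after median centring, 0.28 after cyclic loess, 0.27 after trend removal, and for Axin2 (-0.13) 0.098 after cyclic loess, 0.095 after trend removal, and for Tcf21 (-0.024) 0.053 after median centring, 0.056 after cyclic loess, 0.059 after trend removal. The sign turned in the interaction for Shh (-0.12) 0.0077 after cyclic loess, 0.0056 after trend removal, and for Nr2f2 (-0.027) 0.028 after median centring, 0.11 after cyclic loess, 0.11 after trend removal.

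As each array was left out in turn, uncalled differences spanned 0 as follows. They ran from -0.051 to 0.0081 for Shh, -0.0023 to 0.099 for Gli1, -0.035 to 0.056 for Lef1 in ASP against CON. They ran from -0.0075 to 0.11 for Lef1, -0.0057 to 0.047 for Axin2, -0.030 to 0.023 for Nr2f2, -0.042 to 0.082 for Tcf21 in CGP against CON. They ran from -0.041 to 0.080 for Wnt4, -0.10 to 0.063 for Tcf21 in ASP+CGP against CON. They ran from -0.037 to 0.075 for Rspo3, -0.082 to 0.027 for Nr2f2 in ASP+CGP against ASP. They ran from -0.12 to 0.040 for Tcf21, -0.0029 to 0.037 for Dab2 in ASP+CGP against CGP. They ran from -0.086 to 0.022 for Nr2f2 in the interaction.

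Replicate numbers are shared between pools. The deviations of same-numbered arrays from their pool means correlated between -0.15 and 0.38, with means of 0.096, 0.187 and 0.041 for numbers 1, 2 and 3. Those of differently numbered arrays correlated between -0.39 and 0.28, with a mean of -0.054. Of the 12 arrays, 7 were closest to an array with their own number in another pool. The numbers were not taken as pairs in the main fit, and whether they mark a batch was not tested. With the replicate number as a block the members called were 1 in ASP, 0 in CGP and 0 in ASP+CGP against CON, 1 in ASP+CGP against ASP, 1 in ASP+CGP against CGP and 1 in the interaction, with Tcf21 at -0.65 in ASP against CON, and no call of a member changed. Limits are set by 1 RNA pool per group, by arrays that measure no spread between mice, and by scalings that cannot tell a shift of most genes from a shift in the arrays.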
